A study of Mus musculus with 6 samples.

Results

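The genes described here encode the WNT ligands, their Frizzled receptors, the secreted WNT antagonists of the Sfrp, Dkk and Wif families, the R-spondins and the R-spondin receptors Lgr4, Lgr5 and Lgr6. Members were set by a rule on gene names (Wnt, Fzd, Sfrp, Dkk and Rspo followed by a number, Wif1 and Lgr4 to Lgr6). The rule was chosen with earlier results of these data known, and 45 such genes had a probe on the array. Of these, 35 passed the filter of a probe well above background on any of the 6 arrays, out of 17043 named genes that met the same filter. They were 12 of 19 ligands, all 10 Frizzled receptors, 7 of 9 antagonists, 3 of 4 R-spondins and all 3 R-spondin receptors. The other 10 (Dkk1, Dkk4, Rspo4, Wnt2b, Wnt3, Wnt3a, Wnt7a, Wnt7b, Wnt8a and Wnt9b) were not well above background on any array. Only 13 of the 35 were well above background on all 6 arrays, against 12522 of the 17043 genes. For most members at least 1 array thus gives a bound and not a level, and a member that passed the filter through 1 array had to differ from the others. Members were less often measured on every array than all genes, and the shares of all genes given below are not matched for this.

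WNT proteins are secreted lipid-modified ligands that bind Frizzled receptors together with LRP5/6 or ROR co-receptors. In the canonical branch this stabilises beta-catenin, which joins TCF/LEF proteins at target genes, while other branches act on cell shape, polarity and calcium. Sfrp proteins and Wif1 bind the ligands outside the cell, Dkk1, Dkk2 and Dkk4 block LRP5/6 (Dkk3 is a divergent family member), and R-spondins acting through LGR4 to LGR6 keep Frizzled receptors at the surface. In embryonic fibroblasts the pathway is known for its part in proliferation, matrix production and mesenchymal patterning.

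The cells were mouse embryonic fibroblasts (MEFs) of strain ICR, grown with 10% fetal bovine serum, of 3 genotypes: Per2m/m, a mutant of the clock repressor gene Per2; Clk/Clk, a mutant of the clock activator gene Clock; and wild type (WT). The labels give each genotype after transfection with a vector expressing the oncogene H-Ras and the SV40 T antigen (SV40T), and after mock transfection, which gives 6 single-colour Agilent arrays with 1 array per group. For transfected Per2m/m the source name gives H-Ras without SV40, while the treatment label gives both. The array's Hras probe had log2 levels of 3.16 transfected and 4.49 mock in Per2m/m, 3.86 transfected and 3.23 mock in Clk/Clk, and 4.01 transfected and 4.17 mock in WT, so it was higher after transfection in Clk/Clk and not in Per2m/m or WT. The labels do not say whether that probe detects the vector's H-Ras, so these values do not settle the label of any library. The labels do not say when cells were collected, how many embryos were used or whether transfected cells were selected, and strain ICR was shared by all 6 groups. The study asked what disturbed Per2 function does in oncogenic cells, including their resistance to chemotherapy.

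With 1 array per group, no spread between replicates was measured, and a difference between 2 arrays is a description with no test. Repeated spots of a probe give a spread of 0.07 to 0.09 (log2) for a ratio, which covers spot noise only. A level below is the log2 processed signal minus the 75th percentile of that array, so 0 marks a probe as bright as that percentile. A response is the transfected minus the mock level of a genotype. A difference was counted when it was at least 2-fold and the brighter array was well above background. Where the dimmer array was not well above background, the difference is also given as an "at least" fold against the lowest signal well above background on that array. In RNA from whole cultures, fewer cells of a type and less RNA per cell cannot be told apart.

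Among the 6 arrays, that of transfected Per2m/m cells was the least like the others. Its levels correlated at 0.853 to 0.891 with those of the other arrays over 17043 genes, against median correlations of 0.930 to 0.945 for the other 5 arrays. It had 80.4% of these genes well above background, against 85.7% to 90.7% on the others. The female-expressed Xist and the Y-linked Ddx3y and Eif2s3y were all not well above background there (-6.18, -6.74 and -6.85), whereas the mock Per2m/m array had levels of -0.53, -0.05 and -0.81. Whether these 2 cultures differed in more than transfection was not tested. Fibroblast markers were well above background for 13 of 15 genes on that array and for 13 to 15 of 15 on the other arrays. The Clk/Clk and WT responses do not use the transfected Per2m/m array. The Per2m/m responses use it, as do comparisons of transfected Per2m/m with transfected WT. Counts that combine Per2m/m with other genotypes also include that array, and so does the fit over all 6 arrays described below.

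Probe sequences show which transcript stretch each level reports, and those of 10 members described below are given as the opening 30 bases of the 60-base probes, with the whole probe's position in the deposited files.
Fzd10 probe, mm9 chr5:129109798-129109857, plus strand: ttgactctctgaattgttaaacaaatgatt
Fzd6 probe, mm9 chr15:38869107-38869166, plus strand: ggccgagctgtcgattccccttttaagtgt
Fzd9 probe, mm9 chr5:135724815-135724874, minus strand: tatttaatgatgtaatttattgtggcattt
Wnt10a probe, mm9 chr1:74850633-74850692, plus strand: tttcacttaacagatatttatttttgcgct
Rspo3 probe, mm9 chr10:29172930-29172989, minus strand: ggatactactttctaacaaggtgtatctag
Lgr6 probe, mm9 chr1:136880538-136880597, minus strand: gtctctgttctacatatttggatctgacaa
Lgr6 second probe, mm9 chr1:136883782-136883841, minus strand: tggagaagagctcctgcgactccacccaag
Dkk2 probe, mm9 chr3:131842357-131842416, plus strand: tcagagtgatgatgtcatcagaagtttata
Dkk3 probe, mm9 chr7:119259556-119259615, minus strand: gcctgtaaatcgcatctgaagataccacag
Sfrp1 probe, mm9 chr8:24559438-24559497, plus strand: ttaaaatagtcattccggagagtcagggaa
Sfrp2 probe, mm9 chr3:83577864-83577923, plus strand: tcggcatctaagtcttcaaacatttcgttg

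Promoters from RefSeq (GRCm38.p6) were searched on both strands over 250 bases upstream of the annotated start for CACGTG, the E-box bound by CLOCK and BMAL1, for CTTTGAT, a TCF/LEF motif, and for TGANTCA, the AP-1 motif. Of the 35 members, 23 had a promoter in the table. CACGTG lay in 3 of them (13.0%), against 6.86% of 27025 genes with a promoter. CTTTGAT lay in 2 (8.7%), against 3.72%, and TGANTCA in 1 (4.35%), against 7.82%. The 6 promoters with a match follow because they are the members' only matches to these clock, WNT and Ras-pathway motifs, with the match in capitals.
Fzd9 promoter, GRCm38.p6 chr5:135251048-135251297, minus strand: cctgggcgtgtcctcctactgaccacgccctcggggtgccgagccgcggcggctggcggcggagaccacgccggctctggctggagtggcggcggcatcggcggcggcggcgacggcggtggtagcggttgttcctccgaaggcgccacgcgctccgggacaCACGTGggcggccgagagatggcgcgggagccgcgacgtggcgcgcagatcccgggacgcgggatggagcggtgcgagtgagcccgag
Wnt9a promoter, GRCm38.p6 chr11:59306680-59306929, plus strand: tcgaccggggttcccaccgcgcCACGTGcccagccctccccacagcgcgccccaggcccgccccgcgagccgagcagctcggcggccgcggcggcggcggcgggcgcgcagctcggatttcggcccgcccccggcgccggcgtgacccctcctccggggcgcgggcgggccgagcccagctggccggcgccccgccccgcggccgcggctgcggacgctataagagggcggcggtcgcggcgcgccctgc
Wif1 promoter, GRCm38.p6 chr10:121033754-121034003, plus strand: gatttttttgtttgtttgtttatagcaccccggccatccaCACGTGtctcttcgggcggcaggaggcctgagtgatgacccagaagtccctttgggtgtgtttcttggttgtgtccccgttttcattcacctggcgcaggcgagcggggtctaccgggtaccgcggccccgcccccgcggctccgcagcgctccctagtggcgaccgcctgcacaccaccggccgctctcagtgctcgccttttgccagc
Wnt11 promoter, GRCm38.p6 chr7:98834862-98835111, plus strand: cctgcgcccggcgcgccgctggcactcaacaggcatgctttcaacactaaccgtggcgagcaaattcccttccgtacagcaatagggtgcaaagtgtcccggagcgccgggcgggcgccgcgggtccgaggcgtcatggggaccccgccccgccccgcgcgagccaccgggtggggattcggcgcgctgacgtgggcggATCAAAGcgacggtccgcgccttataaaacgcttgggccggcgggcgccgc
Wnt5b start with CTTTGAT, promoter, GRCm38.p6 chr6:119449387-119449636, minus strand: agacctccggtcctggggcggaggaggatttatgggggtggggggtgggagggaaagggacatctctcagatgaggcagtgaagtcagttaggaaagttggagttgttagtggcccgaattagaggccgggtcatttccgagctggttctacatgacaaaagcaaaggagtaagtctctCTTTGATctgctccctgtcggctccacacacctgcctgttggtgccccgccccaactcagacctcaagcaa
Wnt5b start with TGANTCA, promoter, GRCm38.p6 chr6:119544348-119544597, minus strand: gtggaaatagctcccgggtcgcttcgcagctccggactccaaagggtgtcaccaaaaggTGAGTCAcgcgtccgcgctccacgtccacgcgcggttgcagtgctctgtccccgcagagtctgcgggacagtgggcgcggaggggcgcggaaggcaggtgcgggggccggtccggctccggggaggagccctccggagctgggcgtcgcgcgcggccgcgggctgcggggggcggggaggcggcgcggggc
The match lay 88 bases upstream of the start in Fzd9, 228 in Wnt9a, 210 in Wif1 and 51 in Wnt11 (as ATCAAAG on the strand shown). Wnt5b had its matches at 2 separate starts, at 71 and at 191 bases.

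In Per2m/m, 20 of 35 members were at least 2-fold lower after transfection and 1, the receptor Fzd10, was at least 2-fold higher (21 in all), against 20.7% lower and 18.6% higher (39.4% in all) of 17043 genes. Taking each dim array at its bound left 17 members lower and 1 higher, and the shares of all genes were not recounted at the bound. In Clk/Clk, 9 members were lower and 6 higher, against 4.17% and 3.77% (7.94% in all) of all genes, and in WT 8 were lower and 8 higher, against 11.9% and 7.47% (19.4% in all). The median response of the members was -1.78 in Per2m/m (-1.05 with dim arrays at their bound), 0.09 in Clk/Clk and -0.02 in WT, while that of all genes was 0.12, 0.02 and 0.00. Of the 13 members well above background on all 6 arrays, 6 were lower and 0 higher in Per2m/m, 0 lower and 2 higher in Clk/Clk, and 3 lower and 1 higher in WT. With that filter 13.8% of all genes were lower and 18.9% higher in Per2m/m, 2.15% and 1.78% in Clk/Clk, and 6.21% and 6.8% in WT. Scaling each array to its median instead moved the all-gene median response to 0.40 in Per2m/m and 0.31 in WT, with 18% of all genes lower and 25.9% higher in Per2m/m and 8.61% lower and 14.4% higher in WT. The members then counted 18 lower and 1 higher in Per2m/m, and 7 lower and 9 higher in WT.

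**Figure D1:**
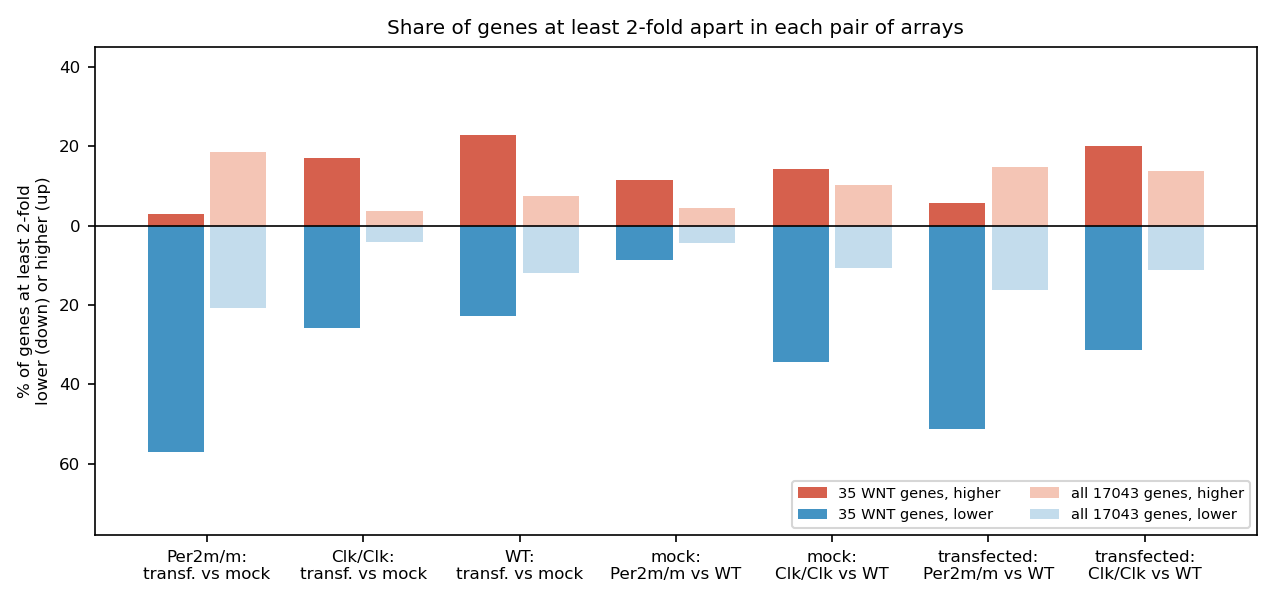
Percent of the 35 WNT pathway genes (dark bars) and of all 17043 genes (pale bars) that were at least 2-fold higher (upwards) or lower (downwards) in each of 7 pairs of arrays, 1 array per group. In Per2m/m cells 57.1% of the WNT pathway genes were lower after transfection and 2.86% higher, against 20.7% and 18.6% of all genes.

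The number of members well above background was 16 of 35 (45.7%) on the transfected Per2m/m array, against 28 on the mock Per2m/m array, and between 24 and 31 on the other 4. A group of 8 members (Dkk2, Fzd6, Fzd8, Fzd9, Sfrp1, Sfrp2, Wnt11 and Wnt4) was well above background on the other 5 arrays and not on that one, which was the case for 22.9% of members and 5.81% of all genes. Background correction bears on these counts: under the normexp method, 31 of the 52 differences counted within genotypes stayed at 2-fold or more and all 52 kept their direction.

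**Figure D2:**
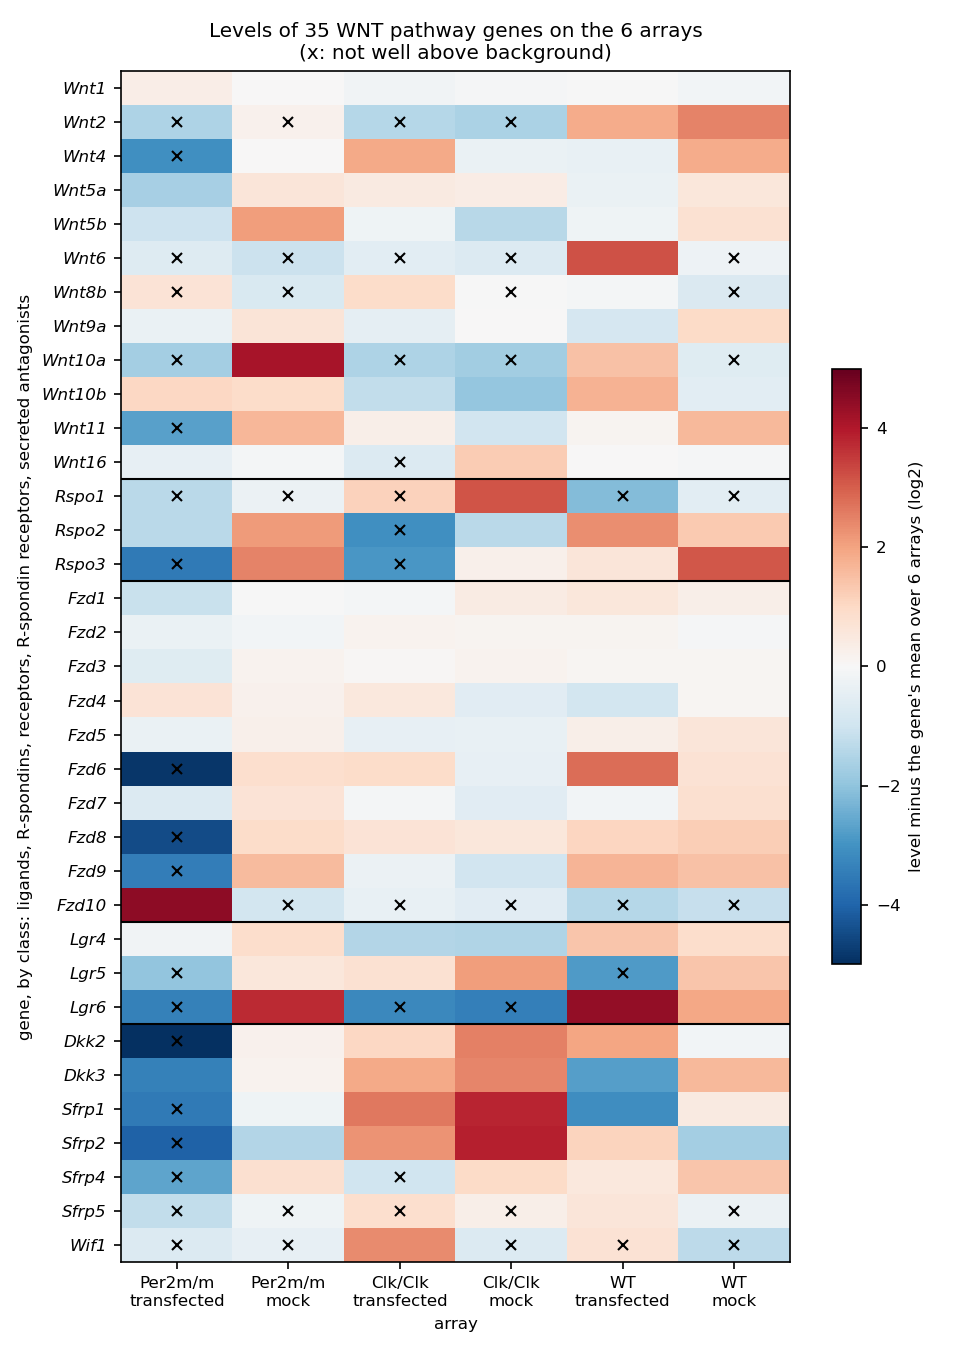
Level of each of the 35 genes on each array minus that gene's own mean over the 6 arrays (log2, colour scale), with genes grouped as ligands, R-spondins, receptors, R-spondin receptors and secreted antagonists, and a cross where the probe was not well above background. The transfected Per2m/m column holds the lowest values of Dkk2, Fzd6, Fzd8 and Fzd9, and the highest of Fzd10.

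Among the ligands, 5 of 12 were lower in Per2m/m and none higher, while Clk/Clk had 3 higher and 1 lower, and WT 3 higher and 3 lower. All-gene shares higher and lower were 18.6% and 20.7% in Per2m/m, 3.77% and 4.17% in Clk/Clk, and 7.47% and 11.9% in WT. Wnt5a and Wnt5b, ligands known mainly for signalling through ROR receptors and planar polarity without beta-catenin, were measured on all 6 arrays. Wnt5a had levels of 1.49 transfected and 3.76 mock in Per2m/m cells, 3.60 transfected and 3.51 mock in Clk/Clk cells, and 2.83 transfected and 3.73 mock in WT cells. Its response was -2.27 in Per2m/m, a 4.83-fold lower level, while the 5 other arrays lay between 2.83 and 3.76. Wnt5b had levels of -1.49 transfected and 1.64 mock in Per2m/m cells, -0.66 transfected and -1.82 mock in Clk/Clk cells, and -0.68 transfected and 0.32 mock in WT cells. The Wnt5b response was -3.13 in Per2m/m (8.78-fold lower), 1.17 in Clk/Clk and -1.0 in WT, so the mock arrays differed more widely than the transfected ones. Under normexp the Clk/Clk value of Wnt5b was 0.84.

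Wnt11 had levels of -4.51 transfected and -0.15 mock in Per2m/m cells, -1.53 transfected and -2.79 mock in Clk/Clk cells, and -1.69 transfected and -0.21 mock in WT cells. Wnt11, a ligand of morphogenetic movements, was at least 20.5-fold lower in Per2m/m, with responses of 1.25 in Clk/Clk (0.75 under normexp) and -1.48 in WT. Wnt4 had levels of -6.75 transfected and -3.63 mock in Per2m/m cells, -1.77 transfected and -3.98 mock in Clk/Clk cells, and -4.04 transfected and -1.82 mock in WT cells. Wnt4, known for kidney and gonad development, was at least 1.94-fold lower in transfected Per2m/m cells, 4.65-fold higher in Clk/Clk and 4.65-fold lower in WT. Under normexp the Wnt4 response was -0.36 in Per2m/m, 1.01 in Clk/Clk and -1.24 in WT. A second Wnt4 probe, well above background on the transfected Clk/Clk and mock WT arrays, was at least 2.3-fold higher after transfection in Clk/Clk and at least 2.77-fold lower in WT.

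Wnt10a had levels of -6.84 transfected and -1.01 mock in Per2m/m cells, -6.69 transfected and -6.86 mock in Clk/Clk cells, and -3.67 transfected and -5.74 mock in WT cells. Wnt10a, a canonical ligand of skin and tooth development, was well above background only in mock Per2m/m and transfected WT cells. It was at least 12-fold lower in Per2m/m after transfection and at least 4.2-fold higher in WT, where normexp gave 0.38. Wnt6 had levels of -6.86 transfected and -7.26 mock in Per2m/m cells, -6.72 transfected and -6.89 mock in Clk/Clk cells, and -3.04 transfected and -6.46 mock in WT cells. Wnt6, an epithelial ligand whose gene neighbours that of Wnt10a, was well above background on the transfected WT array alone, at least 6.6-fold above mock WT (0.76 for the response under normexp). Wnt10b had levels of -1.16 transfected and -1.26 mock in Per2m/m cells, -3.39 transfected and -4.11 mock in Clk/Clk cells, and -0.45 transfected and -2.70 mock in WT cells. Wnt10b, a canonical ligand that restrains fat cell differentiation, was 4.77-fold higher in WT after transfection, with responses of 0.10 in Per2m/m and 0.71 in Clk/Clk.

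Of the other ligands, Wnt9a responded by -0.99 in Per2m/m, -0.48 in Clk/Clk and -1.77 in WT. Wnt16 was at least 3.85-fold lower in Clk/Clk (-0.63 for the response under normexp), with responses of -0.32 in Per2m/m and 0.05 in WT. A second Wnt16 probe, well above background on both Clk/Clk arrays, gave a Clk/Clk response of -0.97, under 2-fold. The level of Wnt1, the founding member of the family, lay between -0.26 and 0.23 on all 6 arrays, but a second Wnt1 probe was not well above background on any array. Wnt8b was well above background only on the transfected Clk/Clk and transfected WT arrays, and its responses stayed under 2-fold wherever an array measured it. Wnt2 was well above background on both WT arrays, at -3.32 transfected and -2.71 mock, and on no array of either mutant.

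**Figure D3:**
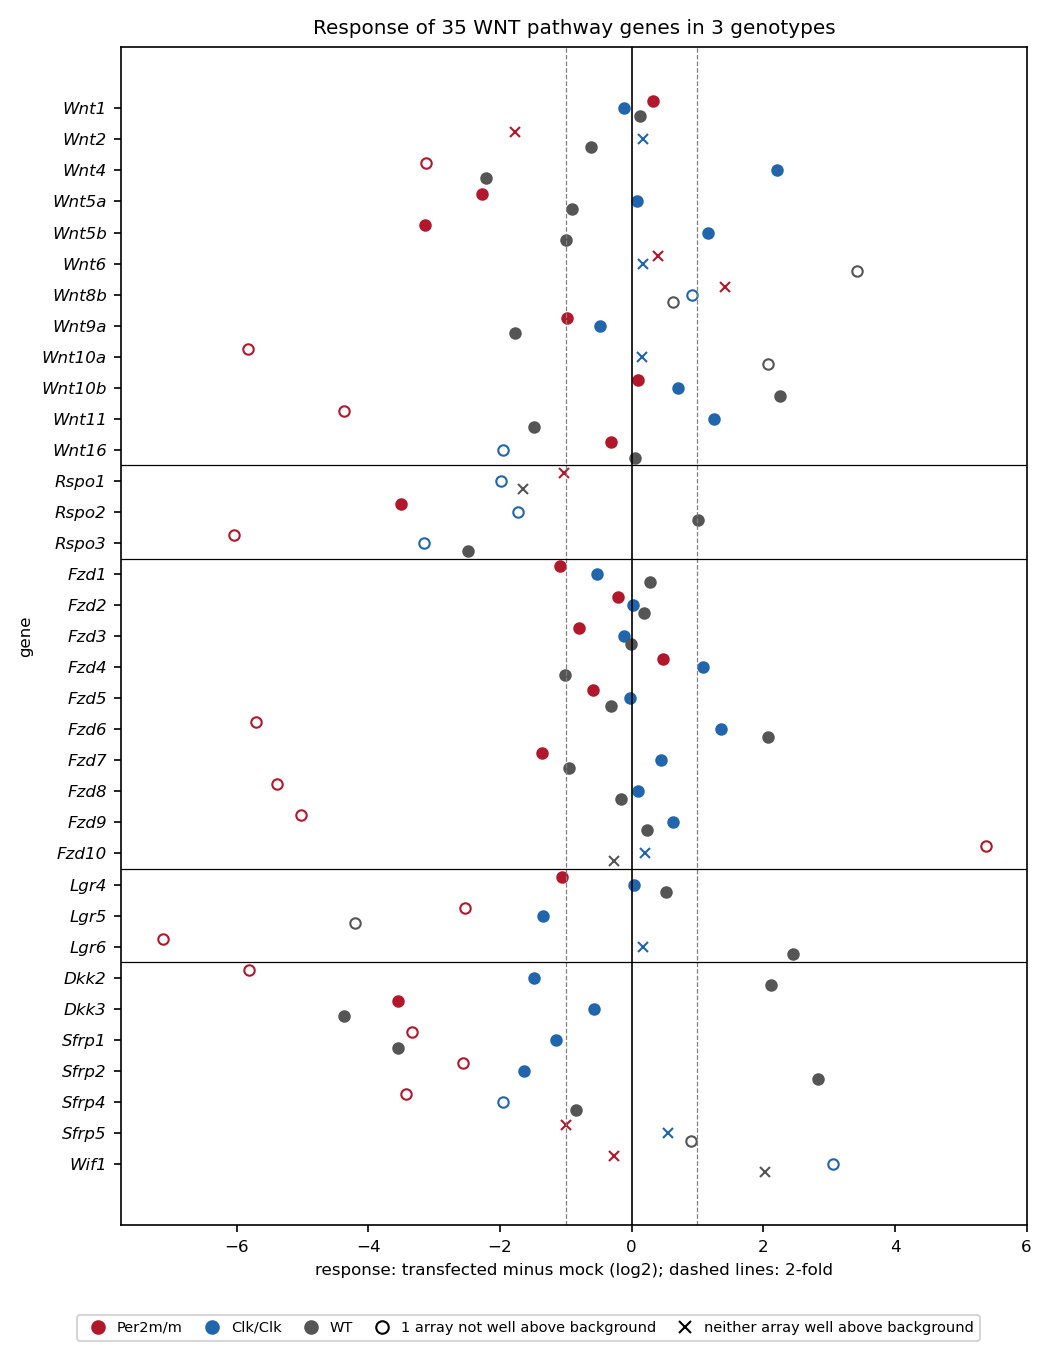
Response of each gene (transfected minus mock level, log2) in Per2m/m (red), Clk/Clk (blue) and WT (grey) cells, 1 array per group, with open circles where 1 array of the pair and crosses where neither was well above background; dashed lines mark 2-fold. Most red points lie left of the lower 2-fold line. Right of the upper line lie Fzd10 in red at 5.38 and Wnt8b as a red cross at 1.42.

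After transfection 3 of 35 members (8.57%) were at least 2-fold lower in all 3 genotypes, against 95 of 17043 genes (0.557%), and 2 of these 3 belong to the R-spondins and their receptors. Rspo3 had levels of -5.69 transfected and 0.36 mock in Per2m/m cells, -5.04 transfected and -1.88 mock in Clk/Clk cells, and -1.54 transfected and 0.95 mock in WT cells. Rspo3, an R-spondin of vessel and mesenchyme development, was at least 30.8-fold lower in Per2m/m, at least 6.22-fold lower in Clk/Clk and 5.62-fold lower in WT, and it stayed more than 2-fold lower in each under normexp (-2.94, -1.02 and -2.13). Lgr5 had levels of -6.66 transfected and -4.13 mock in Per2m/m cells, -3.91 transfected and -2.57 mock in Clk/Clk cells, and -7.51 transfected and -3.30 mock in WT cells. Lgr5, a receptor that marks stem cells of gut and hair follicle, was at least 1.38-fold lower in Per2m/m, 2.54-fold lower in Clk/Clk and at least 4.48-fold lower in WT. Under normexp the Lgr5 responses were -0.42 in Per2m/m, -0.42 in Clk/Clk and -1.0 in WT. A second Lgr5 probe was not well above background on any array.

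Rspo2 had levels of -3.40 transfected and 0.11 mock in Per2m/m cells, -5.10 transfected and -3.38 mock in Clk/Clk cells, and 0.30 transfected and -0.71 mock in WT cells. Rspo2, needed for limb and lung development, was 11.3-fold lower in Per2m/m, at least 2.2-fold lower in Clk/Clk and 2.01-fold higher in WT, and under normexp the last 2 were -0.34 and 0.91. Lgr6 had levels of -6.79 transfected and 0.34 mock in Per2m/m cells, -6.63 transfected and -6.81 mock in Clk/Clk cells, and 0.98 transfected and -1.47 mock in WT cells. Lgr6, a receptor of skin and muscle progenitors, was at least 30.4-fold lower in Per2m/m, 5.48-fold higher in WT, and not well above background on either Clk/Clk array. By the second Lgr6 probe it was at least 8.03-fold lower in Per2m/m, with a response of 1.75 in WT. Rspo1 was well above background on the mock Clk/Clk array alone, at least 3.97-fold above transfected Clk/Clk (-0.76 for the response under normexp). Lgr4, the most widely expressed of the 3 receptors, responded by -1.05 in Per2m/m (-0.70 under normexp), 0.04 in Clk/Clk and 0.53 in WT.

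The Frizzled receptors divided by member. Fzd2, Fzd3 and Fzd5 stayed under 2-fold in all 3 genotypes, whereas Fzd6, Fzd8 and Fzd9 were at least 6.8-fold to 13.8-fold lower in transfected than in mock Per2m/m cells and Fzd10 was at least 10.3-fold higher. Fzd2 had levels of 3.50 transfected and 3.71 mock in Per2m/m cells, 4.01 transfected and 3.99 mock in Clk/Clk cells, and 3.98 transfected and 3.79 mock in WT cells. Fzd2 thus lay between 3.50 and 4.01 on the 6 arrays, and its second probe gave responses of 0.37, -0.12 and 0.60 in Per2m/m, Clk/Clk and WT. Responses of Fzd3 were -0.80, -0.11 and -0.02 in Per2m/m, Clk/Clk and WT, and those of Fzd5 -0.59, -0.02 and -0.32. The second Fzd5 probe gave -1.76, 1.2 and -0.64 in the same genotypes, so the 2 Fzd5 probes differed.

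Fzd6 had levels of -6.55 transfected and -0.85 mock in Per2m/m cells, -0.76 transfected and -2.12 mock in Clk/Clk cells, and 1.1 transfected and -0.97 mock in WT cells. Fzd6, a receptor of hair follicle and tissue polarity, was at least 13.4-fold lower in Per2m/m, 2.56-fold higher in Clk/Clk (0.91 for the response under normexp) and 4.21-fold higher in WT. Fzd8 had levels of -6.19 transfected and -0.80 mock in Per2m/m cells, -1.03 transfected and -1.13 mock in Clk/Clk cells, and -0.61 transfected and -0.45 mock in WT cells. For Fzd8, a receptor of canonical ligands, the 5 other arrays lay between -1.13 and -0.45, and transfected Per2m/m was at least 13.8-fold below mock Per2m/m. Fzd9 had levels of -6.85 transfected and -1.82 mock in Per2m/m cells, -3.70 transfected and -4.33 mock in Clk/Clk cells, and -1.70 transfected and -1.94 mock in WT cells. Fzd9, a receptor known from bone and brain, was at least 6.8-fold lower in Per2m/m, with responses of 0.63 in Clk/Clk and 0.24 in WT. Fzd10 had levels of -1.62 transfected and -6.99 mock in Per2m/m cells, -6.45 transfected and -6.65 mock in Clk/Clk cells, and -7.51 transfected and -7.25 mock in WT cells. Fzd10, a receptor of restricted adult expression, was at least 10.3-fold higher in transfected than in mock Per2m/m cells, and it was well above background on no other array.

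Fzd1 and Fzd7 had responses of -1.09 and -1.37 in Per2m/m, while their responses lay between -0.94 and 0.45 in the other genotypes. A second Fzd7 probe gave -0.36 in Per2m/m. Fzd4, a receptor of retinal vessel growth, was 2.11-fold higher in Clk/Clk and 2.02-fold lower in WT, and both values were under 2-fold with normexp (0.84 and -0.82).

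Of the secreted antagonists, 5 of 7 were lower in Per2m/m and 4 of 7 in Clk/Clk, with 0 and 1 higher, while WT had 2 higher and 2 lower. All-gene shares higher and lower were 18.6% and 20.7% in Per2m/m, 3.77% and 4.17% in Clk/Clk, and 7.47% and 11.9% in WT. Sfrp1 had levels of -5.61 transfected and -2.29 mock in Per2m/m cells, 0.58 transfected and 1.73 mock in Clk/Clk cells, and -5.18 transfected and -1.63 mock in WT cells. Sfrp1, a decoy that binds WNT ligands, was at least 4.94-fold lower in Per2m/m, 2.21-fold lower in Clk/Clk and 11.7-fold lower in WT, and it was the only antagonist lower in all 3. Under normexp the Sfrp1 response was -0.81 in Per2m/m, -1.05 in Clk/Clk and -1.60 in WT. Dkk3 had levels of -1.94 transfected and 1.61 mock in Per2m/m cells, 3.33 transfected and 3.90 mock in Clk/Clk cells, and -1.31 transfected and 3.05 mock in WT cells. Dkk3, often silenced in tumours and measured on every array, was 11.7-fold lower in Per2m/m and 20.6-fold lower in WT, with a response of -0.57 in Clk/Clk. Both Clk/Clk arrays held the highest Dkk3 levels of the 6.

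Dkk2 had levels of -6.80 transfected and -1.0 mock in Per2m/m cells, -0.16 transfected and 1.32 mock in Clk/Clk cells, and 0.78 transfected and -1.33 mock in WT cells. Dkk2, an LRP5/6 ligand, was at least 12.1-fold lower in Per2m/m, 2.78-fold lower in Clk/Clk and 4.32-fold higher in WT. Sfrp2 had levels of -6.54 transfected and -3.98 mock in Per2m/m cells, -0.26 transfected and 1.37 mock in Clk/Clk cells, and -1.38 transfected and -4.21 mock in WT cells. Sfrp2, another WNT-binding decoy, was at least 1.52-fold lower in Per2m/m (-0.23 for the response under normexp), 3.09-fold lower in Clk/Clk and 7.11-fold higher in WT. Dkk2 and Sfrp2 thus shared a direction in the mutants and had the opposite one in WT.

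Sfrp4 had levels of -6.84 transfected and -3.40 mock in Per2m/m cells, -5.19 transfected and -3.24 mock in Clk/Clk cells, and -3.68 transfected and -2.83 mock in WT cells. Sfrp4, a WNT-binding decoy known from bone, was at least 2.27-fold lower in Per2m/m and at least 2.44-fold lower in Clk/Clk, with a response of -0.85 in WT, and normexp gave -0.52 and -0.51 in the mutants. Wif1 had levels of -6.84 transfected and -6.58 mock in Per2m/m cells, -3.80 transfected and -6.86 mock in Clk/Clk cells, and -5.45 transfected and -7.48 mock in WT cells. Wif1 was well above background on the transfected Clk/Clk array alone, at least 1.77-fold above mock Clk/Clk (0.57 for the response under normexp). Sfrp5 was well above background on the transfected WT array alone, and its response there was 0.90.

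Mock Per2m/m had 4 members higher and 3 lower (7 in all) than mock WT, against 4.39% and 4.45% (8.85% in all) of all genes, and no Frizzled receptor or R-spondin was among them. Mock Clk/Clk had 5 higher and 12 lower (17 in all) than mock WT, against 10.3% and 10.6% (20.9% in all) of all genes. The members' median difference was 0.03 for mock Per2m/m and -0.43 for mock Clk/Clk, and that of all genes 0.02 and -0.06. Wnt10a was at least 26.6-fold higher in mock Per2m/m than in mock WT, and Wnt2 at least 4.76-fold lower.

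Sfrp2 was 48.0-fold higher in mock Clk/Clk than in mock WT, Sfrp1 10.2-fold and Dkk2 6.25-fold higher, and Rspo1 at least 12.7-fold higher. Lower in mock Clk/Clk were Rspo3 (7.13-fold), Rspo2 (6.39-fold), Wnt11 (5.98-fold), Fzd9 (5.25-fold), Lgr4 (5.20-fold), Wnt4 (4.48-fold) and Wnt5b (4.43-fold). Lgr6 was at least 8.85-fold and Wnt2 at least 3.77-fold lower there. Among antagonists 3 of 7 were higher and none lower, whereas 5 of 12 ligands, 2 of 3 R-spondins and 2 of 3 R-spondin receptors were lower. The shares of all genes were 10.3% higher and 10.6% lower.

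Transfected Clk/Clk cells had 7 members higher and 11 lower than transfected WT, against 13.7% and 11.1% (24.7% in all) of all genes. Sfrp1 was 54.2-fold and Dkk3 24.9-fold higher, and Lgr6 at least 45.2-fold, Rspo2 at least 28.3-fold and Rspo3 at least 7.89-fold lower. Lower than WT in both the mock and the transfected comparison were Fzd6, Fzd9, Lgr4, Lgr6, Rspo2, Rspo3, Wnt10b and Wnt2. Sfrp1 and Sfrp2 were higher in both. The shares of all genes lower or higher in both were not counted. Wnt4 was lower in mock and 4.81-fold higher in transfected Clk/Clk. With median scaling the median of all genes was -0.75 between the transfected and -0.39 between the mock arrays of Clk/Clk and WT, with 8.36% of all genes higher and 37.1% lower among transfected and 7.45% and 18.4% among mock arrays. Members then counted 5 higher and 16 lower among transfected and 4 higher and 15 lower among mock arrays, and the transfected difference of Sfrp2 was 0.48 (1.13 at the 75th percentile and 0.98 with quantile normalization).

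Transfected Per2m/m cells had 2 members higher (Fzd4 and Fzd10) and 18 lower than transfected WT. Of all genes 14.7% were higher and 16.3% lower (31.0% in all). With dim arrays at their bound 2 members were higher and 14 lower, and the shares of all genes were not recounted there. The members' median difference was -1.39, and -0.82 with dim arrays at their bound. Fzd6 was at least 51.5-fold, Lgr6 at least 47.4-fold, Dkk2 at least 41.4-fold, Fzd8 at least 15.7-fold, Sfrp2 at least 9.22-fold and Rspo3 at least 8.27-fold lower, and Fzd10 at least 14.4-fold higher. Rspo2, measured on both arrays, was 13.0-fold lower, and Fzd4 was 3.07-fold higher. These comparisons share the transfected WT array with the Clk/Clk one and rest on the Per2m/m array that stood apart.

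**Figure D4:**
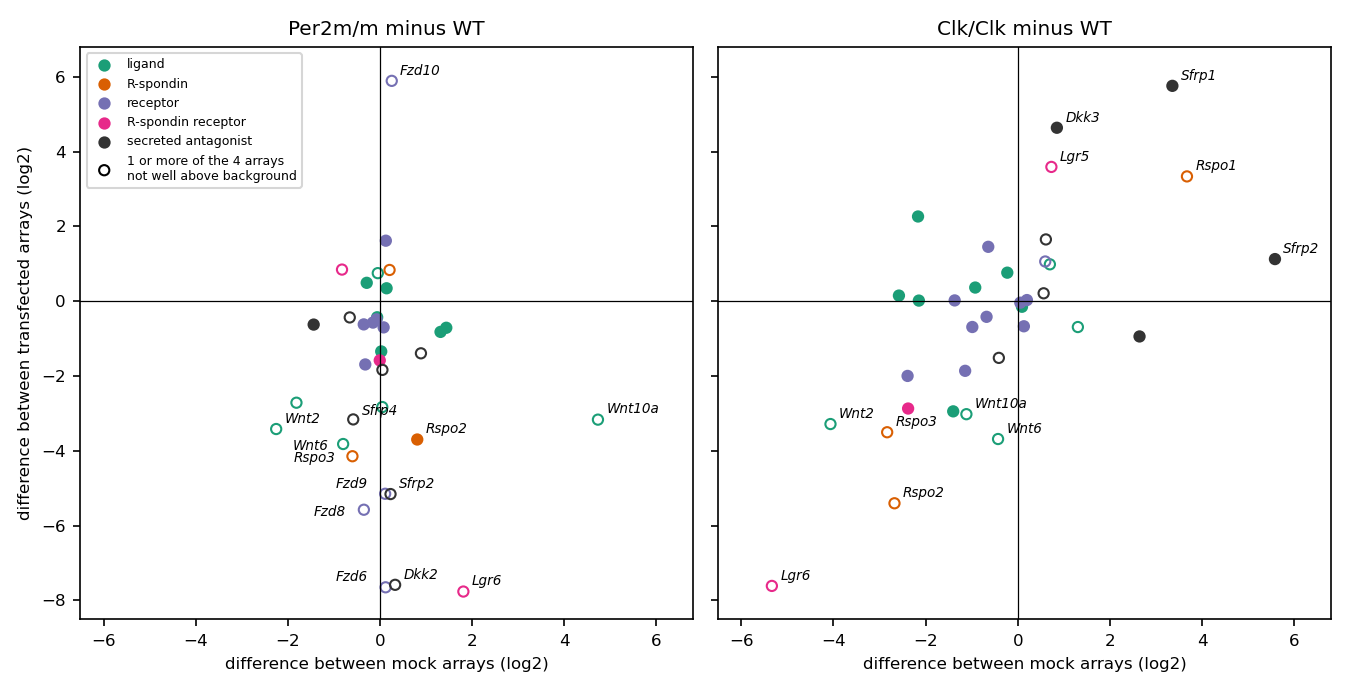
Difference from WT of each gene between transfected arrays (vertical) against mock arrays (horizontal), in log2, for Per2m/m (left) and Clk/Clk (right), coloured by class, with open circles where 1 or more of the 4 arrays was not well above background. On the left most points lie near 0 between mock arrays and below 0 between transfected arrays; on the right Sfrp1 and Sfrp2 lie above 0 on both axes and Lgr6, Rspo2, Rspo3 and Wnt2 below 0 on both.

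An additive limma fit with genotype and transfection, which leaves 2 residual degrees of freedom over the 6 arrays, called 0 of 17043 genes at an adjusted p under 0.05 for transfection (0.0%), for Per2m/m against WT (0.0%) and for Clk/Clk against WT (0.0%). With 1 array per group, its residual spread mixes differences in response between genotypes with noise, which may be technical. Its p-values therefore do not measure a spread between replicates. The fit also takes a signal not well above background as a level. Of the genes given below with an estimate, only Dkk3 and Lgr4 were well above background on all 6 arrays. Wnt2 was so on no array of either mutant, so its estimates set WT levels against dim signals. At an unadjusted p under 0.05, 8 of 35 members (22.9%) differed with transfection, 7 lower and 1 higher, against 789 of all genes (4.63%). The limma estimate was -3.90 ± 0.82 (SE) for Rspo3, -2.83 ± 0.87 for Dkk3, -2.69 ± 0.65 for Lgr5 and -2.67 ± 0.61 for Sfrp1, each at an adjusted p of 0.6938. Without the transfected Per2m/m array the limma estimates were -2.83 for Rspo3, -2.47 for Dkk3, -2.77 for Lgr5 and -2.35 for Sfrp1, at an adjusted p of 0.9361. For Clk/Clk against WT the count was 7 of 35 members, against 1562 of all genes (9.17%), with limma estimates of 4.56 ± 0.74 for Sfrp1, -3.67 ± 0.58 for Wnt2 and -2.62 ± 0.51 for Lgr4, at adjusted p of 0.3156, 0.3088 and 0.3681. For Per2m/m against WT it was 1 of 35 (Wnt2, limma estimate -2.83 ± 0.58, adjusted p 0.9339), against 381 of all genes (2.24%).

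Of 25 genes of the destruction complex and the nuclear effectors, which pass the signal on inside the cell, 2 were higher and 1 lower in Per2m/m, and 0 were at least 2-fold apart in Clk/Clk or WT. The shares of all genes were 18.6% higher and 20.7% lower in Per2m/m, and 7.94% and 19.4% apart in Clk/Clk and WT. Dvl2, an adaptor below Frizzled, responded by 1.73 in Per2m/m and Axin1, the scaffold of the destruction complex, by 1.1. Btrc, which marks beta-catenin for degradation, responded by -2.00 in Per2m/m, and Apc2 by -0.93. All 7 WNT secretion genes stayed under 2-fold in every genotype. Among them Wls, the carrier of WNT ligands to the surface, responded by -0.70 in Per2m/m, -0.34 in Clk/Clk and -0.70 in WT. By the mean response over the 3 genotypes the highest others in that list were Vps26a and Vps35 and the lowest was Tmed5, with Per2m/m responses of 0.56, 0.31 and -0.68.

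Of 20 measured WNT/beta-catenin target genes, 6 were higher and 8 lower in Per2m/m, 0 and 0 in Clk/Clk, and 4 and 5 in WT. The shares of all genes were 18.6% and 20.7% in Per2m/m, 3.77% and 4.17% in Clk/Clk, and 7.47% and 11.9% in WT. Lef1, a nuclear partner of beta-catenin and itself a target, had responses of 2.77 in Per2m/m, -0.41 in Clk/Clk and 1.77 in WT, and Myc had 2.39, 0.38 and 1.30. Fst, a secreted activin antagonist, responded by -8.59 in Per2m/m, where its level was -3.89 transfected and 4.70 mock, and by 0.66 and -0.09 in Clk/Clk and WT. Fgf9, a growth factor of embryonic mesenchyme, was at least 1.51-fold lower in Per2m/m and at least 2.97-fold lower in WT. Axin2, a widely used readout of the canonical branch, was measured above background in mock Per2m/m cells alone, at least 2.06-fold above transfected Per2m/m and at least 4.65-fold above mock WT.

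Of 19 co-receptor and planar polarity genes, 3 were higher and 7 lower in Per2m/m, 1 and 0 in Clk/Clk, and 1 and 8 in WT. The shares of all genes were 18.6% and 20.7% in Per2m/m, 3.77% and 4.17% in Clk/Clk, and 7.47% and 11.9% in WT. Celsr1, a planar polarity cadherin, was higher in Per2m/m by 6.20, and Ror2, a Wnt5a receptor, had responses of 0.51, 0.16 and 1.49 in Per2m/m, Clk/Clk and WT. The glypicans Gpc4 and Gpc3, cell-surface proteoglycans that hold WNT ligands, were lower by at least 93.1-fold and 8.13-fold in Per2m/m. In WT Gpc4 responded by -2.72 and Gpc3 was at least 16.9-fold lower. In Clk/Clk Gpc4 responded by 0.26 and Gpc3 by 1.27. Of 5 other secreted modulators, Igfbp4, an insulin-like growth factor binding protein, responded by 3.39 in Per2m/m and -1.46 in WT, and Tpbg, a membrane glycoprotein, by 0.03 in Per2m/m and 0.56 in WT. Frzb, a relative of the Sfrp decoys, was at least 2.55-fold lower in transfected than in mock Per2m/m cells and at least 32.8-fold higher in mock Clk/Clk than in mock WT. Ndp, a Fzd4 ligand, was well above background on the mock Clk/Clk array alone, at least 3.28-fold above transfected Clk/Clk.

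**Figure D5:**
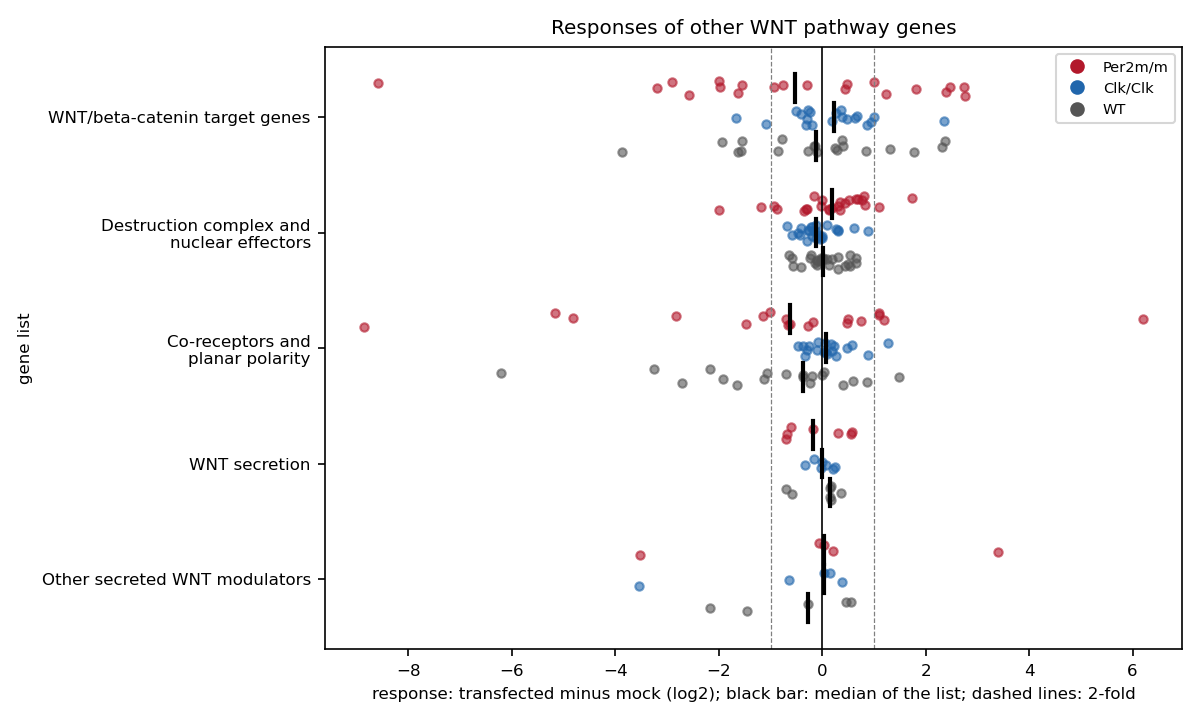
Response (transfected minus mock level, log2) of each measured gene in 5 further WNT pathway lists, for Per2m/m (red), Clk/Clk (blue) and WT (grey) cells, 1 array per group, with black bars at list medians and dashed lines at 2-fold. The WNT secretion genes lie inside the 2-fold lines in all 3 genotypes, and target genes spread to both sides in Per2m/m and WT.

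Markers of other cell states moved with some of these differences. For the counts below, all-gene shares after transfection were 18.6% higher and 20.7% lower in Per2m/m, 4.17% lower in Clk/Clk and 11.9% lower in WT. In Per2m/m all 7 contractile markers were at least 2-fold lower after transfection, with a log2 summed level of 3.73 on the transfected array and 11.1 on the mock array, against 10.5 to 11 on the other 4 arrays. Of 11 epithelial markers 4 were higher (Cdh1, Krt8, Krt14 and Grhl2) and 2 lower (Krt18 and Krt19) in Per2m/m, with summed levels of 2.78 transfected and 2.31 mock, against -0.17 to 1.19 on the other arrays. Of 15 macrophage markers, 15 were well above background in mock Per2m/m and 13 in mock WT cells, against 8 on each of the other 4 arrays, and 12 were lower in Per2m/m and 10 in WT after transfection. The macrophage summed level was 2.81 transfected and 4.25 mock in Per2m/m, 2.83 transfected and 2.90 mock in Clk/Clk, and 2.23 transfected and 3.38 mock in WT. Among fibroblast markers 8 of 15 were lower in Per2m/m, 1 in Clk/Clk and 6 in WT, with summed levels of 10.6 to 11.2 on all arrays. Xist was well above background in mock Per2m/m cells and on both WT arrays, and on neither Clk/Clk array, where the Y-linked genes were. Of 6 endothelial markers 1 was higher and 2 lower in Per2m/m, with summed levels of 2.65 to 3.44 over all arrays. The 3 mesothelial markers had summed levels of 5.06 transfected and 0.79 mock in Per2m/m, 1.46 transfected and 2.91 mock in Clk/Clk, and 1.38 transfected and -0.75 mock in WT. Of these markers only Msln was well above background in transfected Per2m/m cells, with a response of 4.76, while Wt1 was at least 10.5-fold lower there than in mock cells. The part of these differences in the members' values was not tested.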

How the data were processed

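Total RNA of 6 MEF cultures was labelled and hybridised to 6 single-colour Agilent arrays, 1 per combination of genotype and transfection as given in the sample titles. The deposited scanner files hold fluorescence intensity per spot, extracted with Feature Extraction 10.7.1.1 per the file headers, while the submitters' processing notes name 9.5.1.1. The authors' deposited value table also holds intensity, with a median of 23.8 and nearly the same sorted values in every column, and correlates at 0.998 or more with the log2 signals of its own array. The sources used here do not name its software, and it served as an alternative.

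Each array had 59305 spots that were not controls. Between 85 and 125 outlier spots were left out, 0 were saturated, and 49.3% to 57.3% were well above background. All arrays lay on 1 slide and were scanned once, with WT and Clk/Clk in slide row 1 and Per2m/m in row 2, so row and Per2m/m genotype cannot be told apart. Precision is limited by the number of arrays. Repeated spots were averaged, log2 levels were set to the 75th percentile, and a gene was read from its brightest probe well above background on at least 1 array. Of the probes, 27229 were named by RefSeq accession, 3586 by symbol, 565 by synonym and 650 by the file, through a GRCm38.p6 gene table used for names and promoters only. Another 23651 were not named here. Probe positions are those of the files, on mm9.

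Pairs of arrays were compared without a test. An additive fit used lmFit and eBayes of limma 3.58.1 in R 4.3.3 with Benjamini-Hochberg adjustment over all 17043 genes. It was tested on simulated data with the same transfection effect in every genotype. That test does not show how the fit behaves where genotypes respond differently. Members with a response of at least 4-fold in 1 genotype and those under 2-fold throughout were named, and from each pathway list the 2 highest and 2 lowest by mean response with Axin2, Lef1 and Frzb. The members and lists were chosen with earlier results of these data known. Alternatives were median scaling, quantile normalization, normexp background correction (offset 50), the authors' table, a filter on all 6 arrays, no filter, the mean of a gene's probes, a fit without the transfected Per2m/m array and a fit without genotype.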

Additional observations from a re-analysis of the deposited data

Results flagged for a closer look

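For 10 members of 35, at least 2-fold responses ran in opposite directions in a pair of genotypes, with 16 such pairs in all. That is 28.6% of the 35 members, against 833 of 17043 genes (4.89%). Between Per2m/m and WT it held for 17.1% of members and 2.14% of genes, between Clk/Clk and WT for 17.1% and 1.81%, and between Per2m/m and Clk/Clk for 11.4% and 2.55%. Each group held 1 array, so these differences of responses (log2) were not tested. At the bound, Sfrp2 was at least 1.52-fold and Wnt4 at least 1.94-fold lower in Per2m/m, so neither reached 2-fold there. Under normexp the Clk/Clk responses of Fzd4, Fzd6, Rspo2, Wnt11 and Wnt5b and the WT responses of Fzd4, Rspo2 and Wnt10a were under 2-fold. The counts of members and genes were not repeated at the bound or under normexp.

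The Per2m/m response minus the WT response was -9.58 for Lgr6, -7.92 for Dkk2, -7.90 for Wnt10a, -7.77 for Fzd6, -5.39 for Sfrp2 and -4.51 for Rspo2. In all 6 of these genes the level was lower in Per2m/m and higher in WT after transfection. For all but Rspo2 the transfected Per2m/m array was not well above background, so the size depends on how a dim signal is read.

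The Clk/Clk response minus the WT response was -4.46 for Sfrp2, -3.59 for Dkk2 and -2.73 for Rspo2, which were lower in Clk/Clk and higher in WT. It was 4.43 for Wnt4, 2.73 for Wnt11 and 2.10 for Fzd4, which were higher in Clk/Clk and lower in WT. None of these 6 uses the transfected Per2m/m array.

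The Per2m/m response minus the Clk/Clk response was -7.06 for Fzd6, -5.61 for Wnt11, -5.33 for Wnt4 and -4.30 for Wnt5b, lower in Per2m/m and higher in Clk/Clk. Of these, Wnt5b was well above background on all 4 arrays.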

How the results depend on the processing

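No paired analysis was possible because the labels number no replicates and each group held 1 array, so no replicate block could be fitted; the limma fit sets transfected against mock arrays within genotypes through its genotype term, and without that term it called 0 members. All 52 differences counted within genotypes kept their direction under every setting that measured them, 12 of them under the filter on all 6 arrays. That filter and the setting without a filter kept the main levels, so they could change a value only through another choice of probe. Of these 52, 49 stayed at 2-fold or more with median scaling, 50 with quantile normalization, 50 in the authors' table, 51 with probe means, 52 without a filter and 31 with normexp. Under normexp the members counted 5 higher in WT, 1 higher and 4 lower (5 in all) in Clk/Clk, 7 lower (11 in all) in mock Clk/Clk against mock WT, and 6 lower (11 in all) in transfected Clk/Clk against transfected WT. Of all genes, 5.05% were then higher in WT, and 1.28% higher and 1.47% lower in Clk/Clk. Between Clk/Clk and WT, 5.91% were higher and 5.83% lower among mock arrays, and 9.49% and 7.42% among transfected arrays. With probes well above background on all 6 arrays, fewer genes were measured: Per2m/m had 0 higher and 6 lower (6 in all), Clk/Clk 2 and 0 (2), and WT 1 and 3 (4). All-gene shares higher and lower were 18.9% and 13.8% in Per2m/m, 1.78% and 2.15% in Clk/Clk, and 6.8% and 6.21% in WT. Under that filter mock Per2m/m against mock WT had 2 higher and 1 lower (3), mock Clk/Clk 0 and 4 (4), transfected Per2m/m against transfected WT 1 and 3 (4), and transfected Clk/Clk 2 and 2 (4). All-gene shares were 1.43% and 1.82% for mock Per2m/m, and 7.0% and 7.38% for mock Clk/Clk. They were 13.4% and 11.1% for transfected Per2m/m, and 8.76% and 9.94% for transfected Clk/Clk. Sfrp5, not well above background on the transfected Per2m/m array, turned its difference between transfected Per2m/m and transfected WT from -1.84 to 0.15 under normexp, and the cause was not tested. The limma fit called 0 members under every setting. Signal over background on the transfected Per2m/m array limits most of the large Per2m/m differences to bounds.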
